A study of Mus musculus with 6 samples.

Results

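Myc and 5 cyclin-dependent kinase (CDK) inhibitor genes, Cdkn1b, Cdkn1c, Cdkn2a, Cdkn2b and Cdkn2c, were followed in mouse epidermal keratinocytes with and without the zinc finger transcription factors Ovol1 and Ovol2. They were taken by name, as the probe sets annotated to one of these symbols alone, and are 6 of the 19938 named genes measured. Each of 6 Affymetrix arrays held RNA pooled from 2 C57BL/6 mice, with 2 arrays in each of 3 groups. The Ovol1/2 DKO arrays came from Ovol1-/- mice whose Ovol2 gene (Ovol2flox/-) was removed by K14-Cre, a recombinase driven by the promoter of a basal keratinocyte keratin. The arrays labelled Ovol1 KO came from Ovol1-/- mice. Control mice kept a working copy of both genes and were either Ovol2flox/+; Ovol1+/- or Ovol2flox/+;K14-Cre, so Control was not wild type. All cells were isolated from the skin of embryos labelled E18.5 and female, and were cultured for 2 to 5 days without added calcium, which otherwise drives keratinocytes to differentiate.

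Myc is a transcription factor that pairs with Max and drives growth and cell division. CDK inhibitors act against it at the entry into the cell cycle: the Cip/Kip proteins, here p27 (Cdkn1b) and p57 (Cdkn1c), bind cyclin and kinase together, while the Ink4 proteins, here p16 (Cdkn2a), p15 (Cdkn2b) and p18 (Cdkn2c), bind the kinases Cdk4 and Cdk6 and so keep the Rb protein active. In the epidermis Myc is used by dividing basal cells, and CDK inhibitors accompany the exit from division as cells move upwards. Ovol1 and Ovol2 have each been reported to repress Myc in skin cells, which is what makes these genes of interest in the knockouts.

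The start regions of the inhibitor genes were read for short motifs, since the deleted factors bind DNA. RefSeq start windows (GRCm38.p6, 250 bases before to 50 after a start) were at hand for 4 of the 6 genes, Cdkn1b, Cdkn2a, Cdkn2b and Cdkn2c, as 6 windows. The letters CCGTTA, a core motif of Ovol proteins, were searched on both strands. They occurred in 2.76% of all 32851 windows and in 1 of these 6, at the more upstream start of Cdkn2c, beginning 25 bases into the transcript. The E-box CACGTG, the site of Myc with Max, occurred in 7.15% of all windows and in 1 of these 6, at the other Cdkn2c start, beginning 35 bases into the transcript. Both 30-base stretches are shown on the minus strand of chromosome 4, with the motif in capitals, because they are the only such matches among these windows. A match is a description of the letters and not a binding site.
Cdkn2c CCGTTA, chr4:109666715-109666744: cttaaaactctgCCGTTAaaatgggggcgg
Cdkn2c CACGTG, chr4:109665323-109665352: ttttgctgaataatCACGTGtgaatcgagg

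The 250 bases before the more upstream start of Cdkn2c and before the start of Cdkn2b are shown. Cdkn2c was the only gene here whose Ovol1/2 DKO arrays both lay above both Control arrays, as was so for 21.1% of all genes. Cdkn2b varied most among the arrays. Capitals mark the GC box GGGCGG, a general promoter element searched on both strands, which occurred in 35.7% of all windows. It was found 3 times before the more upstream Cdkn2c start, and 1 more match began 37 bases into that transcript. The window of the other Cdkn2c start held 0 matches. None lay before the Cdkn2b start, where 1 match began 5 bases into the transcript. Both genes lie on the minus strand.
Cdkn2c, chr4:109666757-109667006: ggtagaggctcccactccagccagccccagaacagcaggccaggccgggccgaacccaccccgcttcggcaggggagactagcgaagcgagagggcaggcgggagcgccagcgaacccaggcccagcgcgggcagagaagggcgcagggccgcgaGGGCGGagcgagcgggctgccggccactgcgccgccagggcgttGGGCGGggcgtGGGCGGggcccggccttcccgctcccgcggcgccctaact
Cdkn2b, chr4:89311033-89311282: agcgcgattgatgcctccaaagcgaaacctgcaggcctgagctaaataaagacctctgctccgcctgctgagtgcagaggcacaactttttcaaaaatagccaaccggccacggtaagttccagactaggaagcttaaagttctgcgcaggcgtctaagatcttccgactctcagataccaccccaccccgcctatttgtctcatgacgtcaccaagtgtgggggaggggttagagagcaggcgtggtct

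Levels are given as log2(intensity + 16) of the deposited probe set intensity, a scale that understates the change of dim genes. Readings of 3 genes bear on the labels. Ovol1 read 5.96 and 6.22 in Ovol1/2 DKO, 10.75 and 9.80 in labelled Ovol1 KO, and 9.64 and 9.95 in Control. The arrays labelled Ovol1 KO therefore did not show the loss of Ovol1 that their label gives, and every direction drawn from them rests on that label. Ovol2 read 7.63 and 7.50 in Ovol1/2 DKO, 7.88 and 8.38 in labelled Ovol1 KO, and 8.37 and 6.97 in Control, and did not differ by the test in any comparison (limma adjusted p = 0.665 to 1.0). The Ovol1 probe set that read 10.75 and 9.80 in labelled Ovol1 KO read low in Ovol1/2 DKO, whose mice are also Ovol1-/-. Whether the Ovol2 probes fall inside the deleted sequence was not tested. Xist, which coats the silenced X chromosome, read 4.54 in replicate 1 labelled Ovol1 KO and 4.43 in Control replicate 1, against 10.99 to 11.43 on the other arrays, although all samples carry a female label. The keratinocyte keratins Krt5 (13.39 to 13.55) and Krt14 (13.21 to 13.39) were high on every array. Not all keratinocyte markers were level: 2 of 10 passed in Ovol1/2 DKO against labelled Ovol1 KO, where 3.15% of all genes did. These were Dst (2.52-fold, limma adjusted p = 0.0267) and Trp63 (2.14-fold, limma adjusted p = 0.0465). Neither passed against Control (limma adjusted p = 0.140 and 0.103).

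No member differed between genotypes by the test. In Ovol1/2 DKO against Control, 0 of the 6 members passed limma at an adjusted p under 0.05 (0 at an unadjusted p under 0.05), where 2.02% of all 19938 genes did (10.4% at an unadjusted p under 0.05). In labelled Ovol1 KO against Control, 0 of 6 passed (0 at an unadjusted p under 0.05), where 0.0% of all genes did (0.767%, or 153 genes, at an unadjusted p under 0.05). In Ovol1/2 DKO against labelled Ovol1 KO, 0 of 6 passed (0 at an unadjusted p under 0.05), where 3.15% of all genes did (14.1% at an unadjusted p under 0.05). The smallest unadjusted p of a member in these 3 comparisons was 0.388, 0.315 and 0.227, in that order. A missed threshold does not show equal levels, so each gene is given below with the 95% interval of its fold change from the moderated fit. With 2 arrays a group no exact test can reach a two-sided p below 0.333, so the test rests on a spread pooled over groups and genes. In such bulk RNA, fewer cells of a kind and less RNA per cell cannot be told apart.

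**Figure D1:**
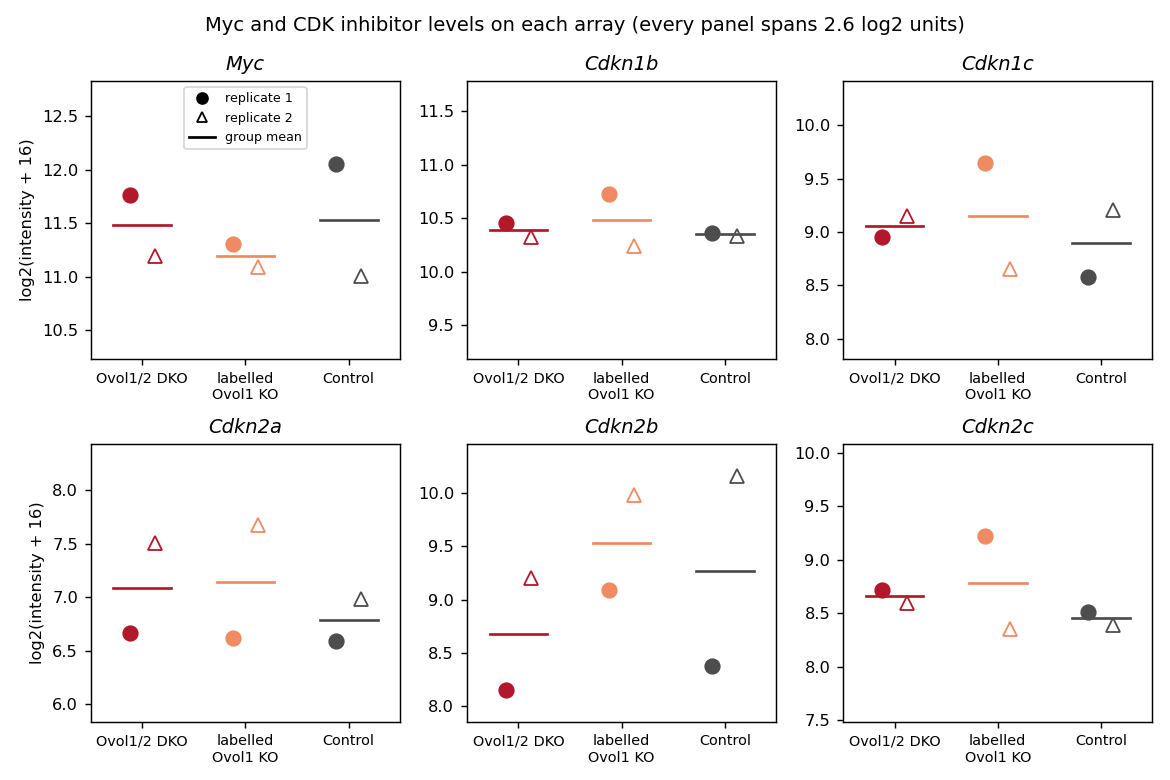
Level of each gene, log2(intensity + 16), on each of the 6 arrays, with Ovol1/2 DKO left, labelled Ovol1 KO in the middle and Control right; filled circles are replicate 1, open triangles replicate 2 and lines group means, and every panel spans the same height. In all 6 panels the 2 arrays of at least 1 group lie farther apart than the group means do.

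Myc (chromosome 15, 61985341 to 61990361, GRCm38.p6) was the only member whose product promotes division. Its level was 11.77 and 11.20 in Ovol1/2 DKO, 11.31 and 11.09 in labelled Ovol1 KO, and 12.06 and 11.00 in Control. Control held both the highest and the lowest array, so each knockout lay inside the Control range. Myc in Ovol1/2 DKO was 0.97-fold of Control (95% interval 0.515 to 1.81, limma adjusted p = 1.0). The interval thus holds falls and rises of moderate size. In labelled Ovol1 KO it was 0.79-fold of Control (0.423 to 1.49, limma adjusted p = 0.999). Ovol1/2 DKO stood 1.22-fold above labelled Ovol1 KO (0.648 to 2.28, limma adjusted p = 0.828). By group mean the order was Control (11.53 ± 0.75), Ovol1/2 DKO (11.48 ± 0.40) and labelled Ovol1 KO (11.20 ± 0.15; SD, n = 2 each), and no neighbours in it differed beyond their spread. The sign of the Ovol1/2 DKO difference from Control depended on single arrays: without Control replicate 1 the log2 difference was 0.48, without Control replicate 2 it was -0.58, and neither passed.

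Cdkn1b (chromosome 6, 134920401 to 134925525) encodes p27, an inhibitor whose amount is set largely by protein breakdown. It was the steadiest member. It read 10.45 and 10.33 in Ovol1/2 DKO, 10.72 and 10.24 in labelled Ovol1 KO, and 10.36 and 10.33 in Control. The highest and the lowest value were those of labelled Ovol1 KO, and the Ovol1/2 DKO and Control arrays overlapped. Cdkn1b in Ovol1/2 DKO was 1.03-fold of Control, with the narrowest interval of the set (0.706 to 1.5, limma adjusted p = 1.0). In labelled Ovol1 KO it was 1.1-fold of Control (0.753 to 1.6, limma adjusted p = 0.999), and in Ovol1/2 DKO 0.94-fold of labelled Ovol1 KO (0.643 to 1.36, limma adjusted p = 0.913). A second, dimmer Cdkn1b probe set read 7.34 and 7.63 in Ovol1/2 DKO, 7.69 and 7.58 in labelled Ovol1 KO, and 7.78 and 7.91 in Control. It disagreed in sign with the first, at a log2 difference of -0.36 for Ovol1/2 DKO against Control, and did not pass in a limma fit of all probe sets (adjusted p = 0.883). On this probe set all Ovol1/2 DKO and labelled Ovol1 KO arrays lay below both Control arrays. Groups did not overlap in those comparisons for 39.2% and 19.1% of all genes. The overlap counts given for the members use the first probe set only.

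Cdkn1c (chromosome 7, 143458339 to 143461059) encodes p57, an imprinted inhibitor. It read 8.96 and 9.15 in Ovol1/2 DKO, 9.64 and 8.66 in labelled Ovol1 KO, and 8.58 and 9.21 in Control. Both Ovol1/2 DKO arrays lay between the 2 Control arrays, and the labelled Ovol1 KO arrays lay 0.99 apart on the log2 scale. Cdkn1c was 1.12-fold of Control in Ovol1/2 DKO (0.604 to 2.07, limma adjusted p = 1.0) and 1.20-fold of Control in labelled Ovol1 KO (0.645 to 2.22, limma adjusted p = 0.999). Ovol1/2 DKO was 0.94-fold of labelled Ovol1 KO (0.505 to 1.73, limma adjusted p = 0.951). Its log2 difference between labelled Ovol1 KO and Control was 1.07 for the replicate 1 arrays and -0.55 for the replicate 2 arrays.

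Cdkn2a (chromosome 4, 89274473 to 89294619) encodes p16 and, from another first exon and reading frame, Arf, which shields p53; one probe set read the gene as a whole. It read 6.66 and 7.50 in Ovol1/2 DKO, 6.61 and 7.68 in labelled Ovol1 KO, and 6.59 and 6.98 in Control. Its lowest arrays lay close to 6.20, the highest array median of probe sets without a gene name, and how much of this signal is background was not tested. The groups overlapped in all 3 comparisons. Cdkn2a was 1.23-fold of Control in Ovol1/2 DKO (0.605 to 2.49, limma adjusted p = 1.0) and 1.28-fold of Control in labelled Ovol1 KO (0.632 to 2.6, limma adjusted p = 0.999). Ovol1/2 DKO was 0.96-fold of labelled Ovol1 KO (0.472 to 1.94, limma adjusted p = 0.974).

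Cdkn2b (chromosome 4, 89306289 to 89311032), the neighbour of Cdkn2a, encodes p15, which transforming growth factor beta induces in epithelial cells and Myc represses. It varied most. Its level was 8.16 and 9.20 in Ovol1/2 DKO, 9.09 and 9.98 in labelled Ovol1 KO, and 8.38 and 10.16 in Control. The lowest array was Ovol1/2 DKO replicate 1 and the highest Control replicate 2, 4.01-fold apart, and the SD over the 6 arrays was larger than that of 94.8% of all genes. Cdkn2b in Ovol1/2 DKO was 0.66-fold of Control (0.230 to 1.92, limma adjusted p = 1.0) and 0.55-fold of labelled Ovol1 KO (0.192 to 1.6, limma adjusted p = 0.646). Labelled Ovol1 KO was 1.20-fold of Control (0.415 to 3.46, limma adjusted p = 0.999). Between arrays of the same replicate number, Ovol1/2 DKO lay below Control by -0.23 (replicate 1) and -0.96 (replicate 2) on the log2 scale. Against labelled Ovol1 KO these differences were -0.93 and -0.78. With replicate number as a block, that last comparison had an SE of 0.25 in place of 0.64 and an unadjusted p of 0.0160, the only one of a member under 0.05 in the blocked model, and it still did not pass after adjustment (limma adjusted p = 0.125). The log2 difference from labelled Ovol1 KO stayed negative with any 1 array left out, from -1.37 to -0.33. Without the 2 arrays that lacked Xist signal the difference from Control was -1.48 (SE 0.41, limma adjusted p = 0.0844), and without Control replicate 2 it was 0.30, so the gene's direction rested on which Control array was kept.

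Cdkn2c (chromosome 4, 109660876 to 109666756) encodes p18, an Ink4 protein that is also made in dividing cells. It read 8.72 and 8.60 in Ovol1/2 DKO, 9.22 and 8.35 in labelled Ovol1 KO, and 8.52 and 8.39 in Control. Both Ovol1/2 DKO arrays lay above both Control arrays, which was so for 21.1% of all genes. By the probe set used for each gene, this was the only 1 of the 6 members whose groups did not overlap in that comparison. Over all genes the share was 39.2% in either direction. The size for Cdkn2c was 1.15-fold (0.697 to 1.91, limma adjusted p = 1.0), and the log2 difference ran from 0.14 to 0.26 when any 1 array was left out. Its sign could not turn there, since the groups did not overlap. In labelled Ovol1 KO Cdkn2c was 1.26-fold of Control (0.760 to 2.08, limma adjusted p = 0.999). In Ovol1/2 DKO it was 0.92-fold of labelled Ovol1 KO (0.554 to 1.52, limma adjusted p = 0.914). In these last 2 comparisons 0 of the 6 members had groups that did not overlap, against 19.1% and 43.1% of all genes.

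**Figure D2:**
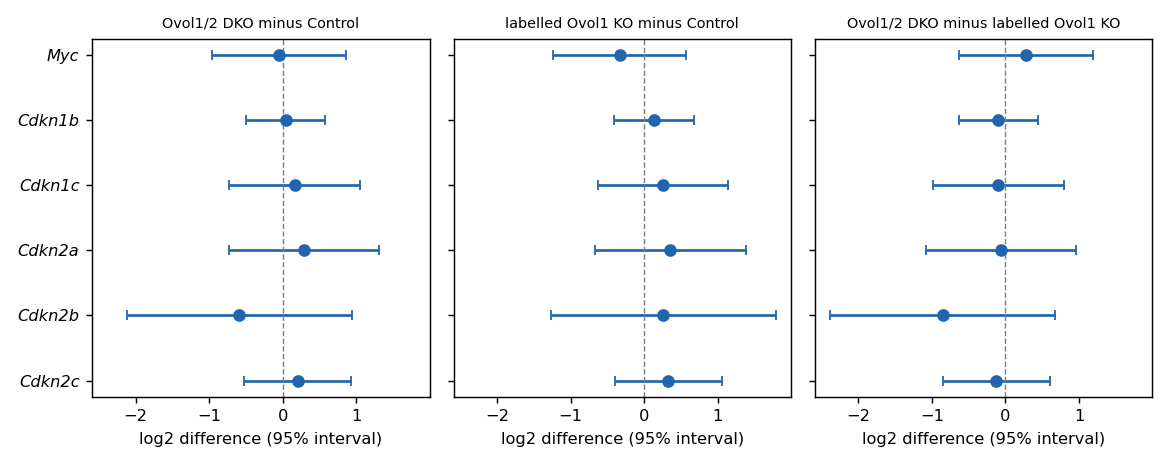
Log2 difference of each gene with its 95% interval from the moderated fit (n = 2 arrays a group) in the 3 comparisons, the first-named group minus the second. Every interval crosses 0, and those of Cdkn2b are the widest and those of Cdkn1b the narrowest.

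The larger pattern in these genes lay within the groups. Myc was higher on all 3 replicate 1 arrays (11.31 to 12.06) than on all 3 replicate 2 arrays (11.00 to 11.20). Cdkn1b did likewise by a narrow gap, with 10.36 to 10.72 against 10.24 to 10.33. Its second, dimmer probe set did not separate the arrays by number. Cdkn2a ran the other way, with 6.59 to 6.66 on the replicate 1 arrays and 6.98 to 7.68 on the replicate 2 arrays. Cdkn2b did so too, with 8.16 to 9.09 against 9.20 to 10.16. In all, 4 of the 6 genes separated the arrays by replicate number, against 24.4% of all genes. Cdkn1c and Cdkn2c did not, and replicate 1 labelled Ovol1 KO was the highest array for both. The labels do not say that a replicate number marks a shared day or litter, and the 2 arrays without Xist signal are both numbered 1.

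**Figure D3:**
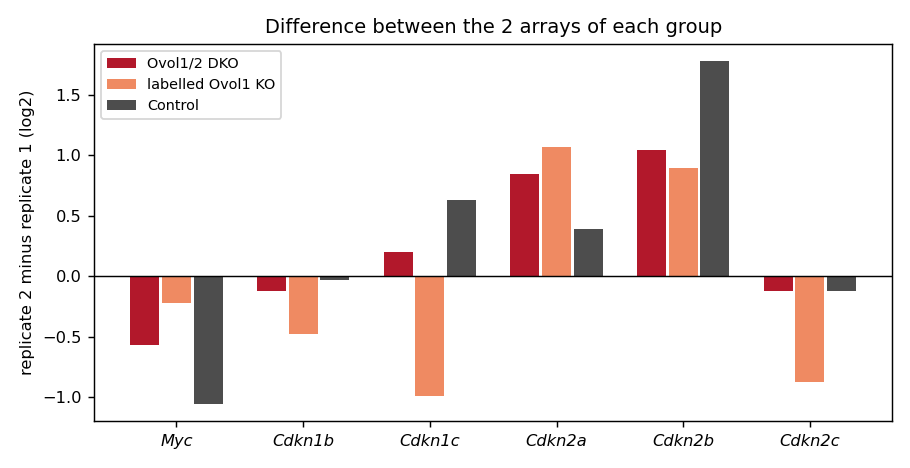
Difference between the 2 arrays of each group, replicate 2 minus replicate 1, in log2 units, for Ovol1/2 DKO (red), labelled Ovol1 KO (orange) and Control (grey). The bars of Myc, Cdkn1b and Cdkn2c are all below 0 and those of Cdkn2a and Cdkn2b all above, with the largest, 1.78, for Cdkn2b in Control.

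Other readings differed among the arrays as well, some with replicate number and some not. Of 12 fibroblast markers, 9 were lower on all replicate 1 arrays than on all replicate 2 arrays, against 11.3% of all genes. Of the 12, 1 lay at or under 6.20 on every array. Thy1, a surface protein of fibroblasts and some other cells, was the only one of the 12 to pass: it rose 3.18-fold in Ovol1/2 DKO against Control (limma adjusted p = 0.0187) and 3.74-fold against labelled Ovol1 KO (limma adjusted p = 0.0106). Their summed intensity ran from 2116 to 2721 in Ovol1/2 DKO, from 1369 to 2388 in labelled Ovol1 KO and from 1274 to 2443 in Control. Of 8 leukocyte and 7 endothelial markers, 3 each lay at or under 6.20 throughout. The endothelial marker Pecam1 was 2.43-fold higher in Ovol1/2 DKO than in labelled Ovol1 KO (limma adjusted p = 0.0204). No other leukocyte or endothelial marker passed in any comparison. Kdr, the highest endothelial marker, read 9.19 and 8.77 in Control and 7.82 to 7.96 on the other arrays. The 9 melanocyte markers summed to 704 to 838 in Ovol1/2 DKO, 903 to 1184 in labelled Ovol1 KO and 1285 to 1409 in Control. These 3 ranges did not overlap, but none of the 9 markers passed in any comparison. Sox10, the highest of them, read 7.741 to 7.785 on the replicate 1 arrays and 8.182 to 8.612 on the replicate 2 arrays. The mean level of 19 proliferation genes, among them Mki67 and the Mcm helicase genes, was 11.18 and 10.56 in Ovol1/2 DKO, 10.21 and 10.06 in labelled Ovol1 KO, and 10.98 and 10.05 in Control. In every genotype the replicate 1 array had the higher mean, though none of the 19 genes taken alone separated the arrays by number. Late differentiation genes (11 measured) averaged 7.28 and 7.42 in Ovol1/2 DKO, 10.53 and 8.93 in labelled Ovol1 KO, and 9.05 and 9.66 in Control, with labelled Ovol1 KO replicate 1 the highest array, as for Cdkn1b, Cdkn1c and Cdkn2c. The part of any of these in the levels of Myc and the inhibitors was not tested.

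The surrounding pathway was read from 13 lists holding 138 genes, of which 126 were measured. In Ovol1/2 DKO against Control, 4 of these 126 passed, where 2.02% of all genes did. In labelled Ovol1 KO against Control 0 passed (as for all genes). In Ovol1/2 DKO against labelled Ovol1 KO 7 passed, where 3.15% of all genes did. The single passing genes of the lists below are to be read beside these shares. The 2 comparisons with Ovol1/2 DKO share its arrays, so their counts are not independent. The late differentiation list held 2 of those 4 and 4 of those 7. In it 0 of 11 rose and 2 fell against Control, and 0 rose and 4 fell against labelled Ovol1 KO.

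In the Myc and Max network, 1 of 12 measured genes fell in Ovol1/2 DKO and none rose. It was Mxd1, a Max partner that takes Myc's place on DNA, represses its targets and is made in differentiating epidermis. Mxd1 read 6.72 and 7.59 in Ovol1/2 DKO, 11.60 and 11.56 in labelled Ovol1 KO, and 9.82 and 11.79 in Control. Both Ovol1/2 DKO arrays lay below the other 4. Its log2 difference was -3.65 from Control (SE 0.62, limma adjusted p = 0.0405) and -4.43 from labelled Ovol1 KO (SE 0.62, limma adjusted p = 0.0174). The call against Control was lost without either Ovol1/2 DKO array (adjusted p = 0.196 and 0.124) and without either array labelled Ovol1 KO (0.0765), which adds only to the pooled spread. The call against labelled Ovol1 KO was lost without any 1 of the 4 arrays compared (0.0603 to 0.0939). The list's median difference from Control was -0.04, beside 0.03 over all genes. Mycn, a relative of Myc, and Max itself were among the 11 that did not pass.

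Genes that Myc is known to switch on in ribosome and nucleotide synthesis did not pass in any comparison. Of 20 measured, 13 had a positive and 7 a negative log2 difference in Ovol1/2 DKO against Control, with a median of 0.05 beside 0.03 over all genes and a range of -0.77 to 0.59. In labelled Ovol1 KO against Control all 20 were negative, from -0.79 to -0.08, with a median of -0.36 beside -0.00 over all genes. Without Control replicate 1 that median was -0.03, with 6 of 20 positive. For Ovol1/2 DKO against Control the median was 0.46 without Control replicate 1 and -0.28 without Control replicate 2. It was -0.27 without Ovol1/2 DKO replicate 1 and 0.40 without Ovol1/2 DKO replicate 2. In Ovol1/2 DKO against labelled Ovol1 KO 19 of 20 were positive, with a median of 0.47, and of 0.10 without Ovol1/2 DKO replicate 1. The list's mean level was 11.63 and 10.99 in Ovol1/2 DKO, 10.84 and 10.94 in labelled Ovol1 KO, and 11.59 and 10.97 in Control. Within Ovol1/2 DKO and Control the replicate 1 array was thus the higher, as for Myc. Of 7 Myc cofactors and turnover genes, none passed.

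Of the targets of the inhibitors, the G1 cyclins and their kinases (10 measured) held no passing gene. Cyclin D3, Ccnd3, had the smallest p of them in Ovol1/2 DKO against Control (1.69-fold, unadjusted p = 0.00838, limma adjusted p = 0.181), followed by Ccnd2, also in the Myc target list (1.51-fold, limma adjusted p = 0.561). The list median was 0.24 in that comparison (-0.19 without Control replicate 2) and -0.22 in labelled Ovol1 KO against Control (0.03 without Control replicate 1). The Rb and E2F genes (13 measured) lie downstream of these kinases. They had medians of 0.36 and -0.32 in the same comparisons, with none passing. Without Control replicate 2 the first was 0.07, and without Control replicate 1 the second was 0.02. Against labelled Ovol1 KO the Ovol1/2 DKO median was 0.62. The 19 proliferation genes had medians of 0.33 and -0.41: all 19 were positive in Ovol1/2 DKO against Control (0.14 to 0.58) and all 19 negative in labelled Ovol1 KO against Control (-0.73 to -0.02), again with none passing. Both signs rested on single arrays. The Ovol1/2 DKO median was -0.12 without Control replicate 2, with 4 of 19 positive. Without Ovol1/2 DKO replicate 1 it was -0.03, with 9 of 19 positive. Without Control replicate 1 the labelled Ovol1 KO median was 0.07, with 12 of 19 positive. In Ovol1/2 DKO against labelled Ovol1 KO all 19 were positive, with a median of 0.80, and were so with any 1 of these 4 arrays left out (medians 0.41 to 1.09), again with none passing. Cdkn2d, the remaining Ink4 gene measured (p19), was 1.18-fold of Control in Ovol1/2 DKO (limma adjusted p = 0.940) and 1.04-fold of Control in labelled Ovol1 KO (limma adjusted p = 0.999). Cdkn1a, the other CDK inhibitor listed beside it, was not among the genes measured.

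**Figure D4:**
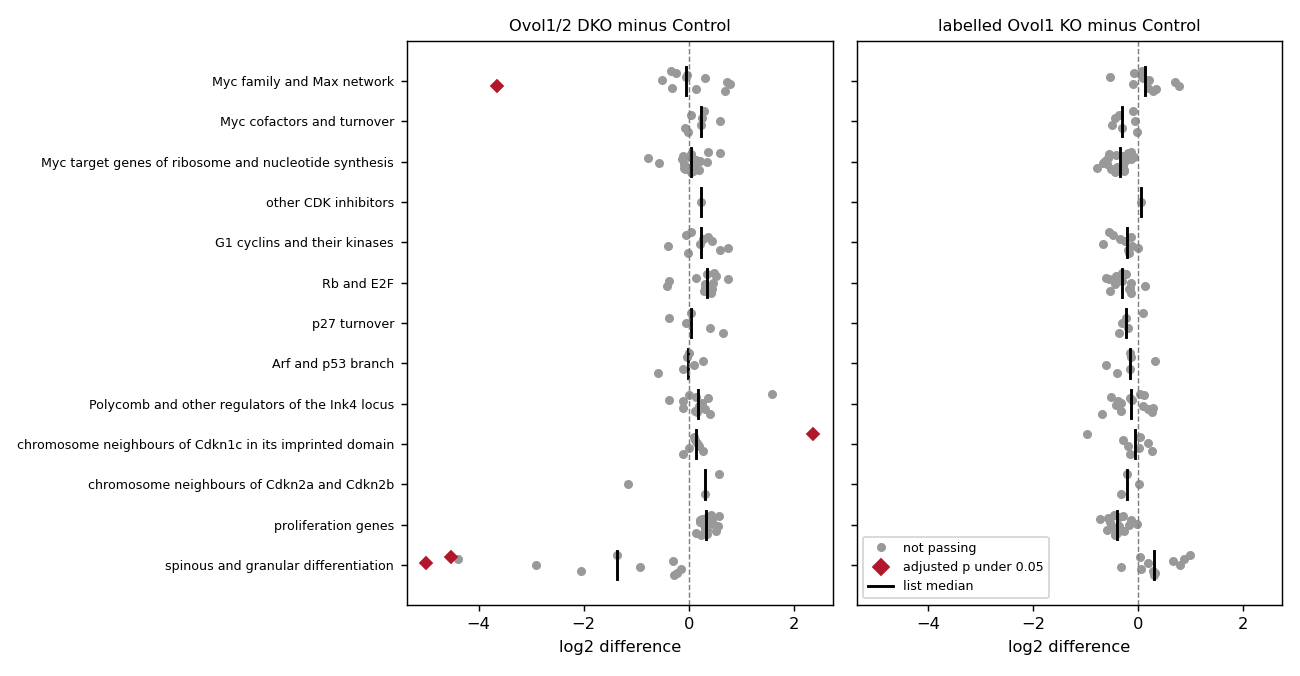
Log2 difference of each measured gene in the 13 pathway lists, for Ovol1/2 DKO minus Control (left) and labelled Ovol1 KO minus Control (right); grey points did not pass, red diamonds had a limma adjusted p under 0.05, and black bars are list medians. The red points are Mxd1, Igf2 and 2 late differentiation genes, and no gene passed in the right panel.

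The genes that act on the inhibitors held few passing members as well. Skp2, which marks p27 for breakdown, was 1.58-fold of Control in Ovol1/2 DKO (limma adjusted p = 0.818), and none of 5 measured genes of p27 turnover passed. In the Arf and p53 branch none of 6 measured genes passed, and Cdkn1a, also listed there, was not measured. Mdm2, the ubiquitin ligase that Arf blocks, was 0.67-fold of Control in Ovol1/2 DKO (limma adjusted p = 0.481). Of 14 Polycomb and other regulators of the Ink4 genes, 1 rose against labelled Ovol1 KO and none against Control. It was Id1, a helix-loop-helix protein that restrains p16. Id1 read 8.99 and 8.32 in Ovol1/2 DKO, 7.04 and 7.15 in labelled Ovol1 KO, and 7.32 and 6.82 in Control. Its log2 difference was 1.56 against labelled Ovol1 KO (SE 0.29, limma adjusted p = 0.0437) and 1.59 against Control (limma adjusted p = 0.0542). The call was lost when any 1 of the 4 arrays compared was left out (adjusted p = 0.0863 to 0.239).

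Cdkn1c sits in a cluster of imprinted genes on distal chromosome 7, of which 8 listed neighbours were measured. Of these, 1 rose in Ovol1/2 DKO and none fell. It was Igf2, the imprinted fetal growth factor, which read 12.10 and 11.78 in Ovol1/2 DKO, 9.05 and 8.13 in labelled Ovol1 KO, and 9.91 and 9.22 in Control. Both Ovol1/2 DKO arrays lay above the other 4. The log2 difference was 2.38 from Control (SE 0.37, limma adjusted p = 0.0327) and 3.35 from labelled Ovol1 KO (SE 0.37, limma adjusted p = 0.0101). The call against Control was lost without Control replicate 2 (adjusted p = 0.140) and without either Ovol1/2 DKO array (0.170 and 0.141). The call against labelled Ovol1 KO was lost without Ovol1/2 DKO replicate 1 (0.0556). The list's median difference from Control was 0.14, and Cdkn1c itself differed by 0.16 (SE 0.37). The 3 measured neighbours of Cdkn2a and Cdkn2b included none that passed.

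Across the 6 arrays, the genes whose pattern was most like each member's were taken by Pearson r on the log2 scale, among genes at or above the median level and with at least 0.5 of the member's SD. For Myc these were Txnl1, Yae1d1 and Rttn (r = 0.995 each), and 216 of 7553 candidates exceeded 0.95. For Cdkn1b they were Arl2bp, Timm17b and Lgals4 (0.993, 0.991 and 0.991). For Cdkn1c they were Pcmtd1, Itpr2 and Ahnak2 (0.978, 0.973 and 0.973). For Cdkn2a they were C1ql2, Id4 and Otp (0.997, 0.990 and 0.989), and for Cdkn2b Adamtsl4, Lynx1 and Snora44 (0.993, 0.987 and 0.979). For Cdkn2c they were Zfp691, Arl2bp and Bet1l (0.994, 0.993 and 0.987), so Arl2bp was named for both Cdkn1b and Cdkn2c. The count of candidates above 0.95 was 48 of 9781 for Cdkn1b, 20 of 7850 for Cdkn1c, 52 of 6686 for Cdkn2a, 11 of 3022 for Cdkn2b and 32 of 8705 for Cdkn2c. All these values come from the same 6 arrays.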

How the data were processed

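Affymetrix arrays were summarised with Affymetrix Expression Console 1.1.1 and PLIER 2.0, per the submitters' processing notes. The authors deposited a linear intensity per probe set; how they corrected background and normalized is not given in the sources used here. Array medians ran from 103.3 to 109.8.

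Of 35556 probe sets, 21789 had 1 gene symbol in the platform annotation, 1621 had several and were not named, while 12146 stayed without a name. Current symbols (GRCm38.p6) came through Entrez identifiers, 91 of which found no match. The probe set with the highest mean stood for each of 19938 genes. Values were taken as log2(intensity + 16). All 3 comparisons came from one limma 3.58.1 model (lmFit, then eBayes; R 4.3.3; 3 residual and 3.68 prior degrees of freedom), with p-values adjusted by Benjamini-Hochberg over all genes. Intervals are unadjusted. The number of arrays limits the precision: the median SE was 0.245. The arrays of a group are labelled biological replicates. Alternatives were replicate number as a block, each array left out, both arrays without Xist signal left out, only the groups compared, quantile normalization, pseudocounts of 1 and 64, dim genes left out, all probe sets, and an intensity trend. List medians with 1 array left out were added after seeing the data.

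The members and lists were chosen with earlier results of these data known. Named were the members, and in each list and comparison the passing genes (at most 4) or, with none passing, the 2 of smallest p, not all of which are printed. Max, Mycn and Mki67 were named without values to show what a list holds, and Cdkn1a as not measured.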

Additional observations from a re-analysis of the deposited data

How the results depend on the processing

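None of the 18 results of a member in a comparison passed in limma under any of 15 alternatives (270 values, smallest adjusted p = 0.0844 for Cdkn2b in Ovol1/2 DKO against Control without the 2 arrays lacking Xist signal). Signs were less stable: 31 values had the other sign, 21 with 1 array left out and 10 without both arrays lacking Xist signal. These 10 were, for Ovol1/2 DKO against Control, Myc 0.48 and Cdkn1c -0.15; for labelled Ovol1 KO against Control, Myc 0.0854, Cdkn1b -0.0884, Cdkn1c -0.55, Cdkn2b -0.18 and Cdkn2c -0.0448; and between the 2 knockouts, Cdkn1b 0.14, Cdkn1c 0.40 and Cdkn2c 0.31. With 1 array left out, the log2 difference between Ovol1/2 DKO and Control ran from -0.58 to 0.48 for Myc, -0.0235 to 0.10 for Cdkn1b, -0.15 to 0.48 for Cdkn1c, -0.13 to 0.72 for Cdkn2a and -1.48 to 0.30 for Cdkn2b. Between labelled Ovol1 KO and Control it ran from -0.86 to 0.19 for Myc, -0.10 to 0.37 for Cdkn1b, -0.24 to 0.75 for Cdkn1c, -0.17 to 0.89 for Cdkn2a, -0.63 to 1.15 for Cdkn2b and -0.11 to 0.77 for Cdkn2c. Between Ovol1/2 DKO and labelled Ovol1 KO it ran from -0.0026 to 0.57 for Myc, -0.33 to 0.14 for Cdkn1b, -0.59 to 0.40 for Cdkn1c, -0.59 to 0.47 for Cdkn2a and -0.56 to 0.31 for Cdkn2c. The 2 member results that kept their sign in all 15 alternatives were Cdkn2b between the 2 knockouts (-1.37 to -0.33) and Cdkn2c between Ovol1/2 DKO and Control (0.14 to 0.26). Several alternatives left the difference itself unchanged, so no sign could turn under them. These were the block, only the groups compared, dim genes left out, all probe sets, the trend and an uncompared array left out. For Cdkn2c between Ovol1/2 DKO and Control, leaving out arrays could not turn the sign either, since those groups did not overlap. In both Ovol1/2 DKO comparisons, leaving out both arrays lacking Xist signal repeats the difference of a single leave-out, so its reversals are counted again. The cause of these sign changes was not tested.

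The count of all genes called also moved. For Ovol1/2 DKO against Control (403) it was 155 with a pseudocount of 64, 91 with all probe sets in the fit, 1393 without the 2 arrays lacking Xist signal, and 99 to 455 with 1 array left out. For Ovol1/2 DKO against labelled Ovol1 KO (628) it was 311, 206 and 1502 under the same settings, 1022 with replicate number as a block, and 135 to 829 with 1 array left out. For labelled Ovol1 KO against Control (0) it was 20 without the 2 arrays lacking Xist signal and 0 to 3 with 1 array left out.

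With replicate number as a block, no member passed (adjusted p = 0.125 to 0.963). Over all genes, same-numbered arrays deviated together from their group means, with a correlation of 0.489 for Ovol1/2 DKO with Control, 0.261 for labelled Ovol1 KO with Control and 0.194 for the 2 knockouts, a hint from the data and not from the design. Outside the members, a pseudocount of 64 and all probe sets each ended the calls of Mxd1 against Control (adjusted p = 0.129 and 0.147) and against labelled Ovol1 KO (0.0646 and 0.0713), of Igf2 against Control (0.0808 and 0.120) and of Id1 against labelled Ovol1 KO (0.0877 and 0.126). Igf2 against labelled Ovol1 KO passed under both (0.0327 and 0.0475). Mxd1 against Control also lost its call with quantile normalization (0.0553) and with only the groups compared (0.0765).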
